A study of Nematostella vectensis with 30 samples.

Results

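The miRNA cargo of NveAGO1, an Argonaute protein of the sea anemone Nematostella vectensis, was compared between primary polyps and adult males. The members were the 4 libraries, of 30 in the series, made from small RNAs pulled down with the rabbit antibody against NveAGO1, 2 from primary polyps and 2 from adult males. Animals came from the laboratory strain used for the Nematostella genome and were lysed whole, and each IP (immunoprecipitation) had 2 biological replicates at each stage. The labels give the stage and the antibody for each library but no age, and a sex for the adults alone, so stage and sex cannot be told apart. The paper gives the age of its primary polyps in days and that of its adults in months, though not library by library. Libraries from NveAGO2 IPs and rabbit IgG control IPs of the same stages served as comparison and background. Counts exist for each arm of a miRNA precursor, called guide and star. These roles are those in the arm names of the deposited table for newly annotated miRNAs and in the study's own arm annotation for the others, while for miR-2041b and miR-2043a they were taken by sequence from its separate list of guides. Of 252 arms with distinct counts, 216 had a count in at least 1 of the 4 libraries and 196 were tested, 134 guides and 62 stars. Levels are counts per 1000000 miRNA counts of the library, written CPM. A level is thus a share of the loaded miRNAs and not an amount of RNA, and in whole animals fewer cells of a type and less RNA per cell cannot be told apart.

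An Argonaute protein holds 1 strand of the miRNA duplex, the guide, which pairs with target RNAs, while the star strand is mostly discarded. Bases 2 to 8 of the guide form the seed, the stretch that first pairs with a target. In cnidarians the pairing usually extends along nearly the whole guide and the target is cleaved, as with plant miRNAs. Nematostella has a pair of Argonautes that carry miRNAs, and NveAGO2 also carries siRNAs. Most Nematostella miRNAs are not known from bilaterian animals. miR-100 is the exception, being shared between cnidarians and bilaterians, whereas miR-2022, miR-2023, miR-2025 and miR-2030 are shared with other sea anemones and corals, and miR-2022 is known from stinging cells.

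Total miRNA counts were 3247542 and 6192172 for the polyp NveAGO1 libraries and 2359210 and 908893 for the adult ones. They were 99.0% and 100.6% of the genome-mapped reads in polyps and 27.0% and 17.0% in adults. In the IgG libraries the share was 14.5% and 3.26% in polyps and 0.556% and 0.513% in adults, from 66334, 62032, 22802 and 9878 counts. The share above 100% shows that both totals were not counted on the same basis. The stages thus also differed in how much of each library was miRNA, and the part of this in the results was not tested apart from the change of scale given below. On log2(CPM + 1) over the 196 arms, which share their libraries and depth, Pearson's r was 0.98 between the polyp libraries and 0.95 between the adult ones. Across the stages it was 0.53 to 0.65. Replicates were therefore closer to each other than to any library of the other stage.

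The guides that led the polyp libraries are printed first, because a few of them made up most of the cargo at that stage. Sequences are those of the deposited count table, 5′ to 3′, and capitals mark the seed.
miR-2023-3p: aAAGAAGUacaagugguaggg
miR-2025-3p: uUUUUUAGcccgcggaaguugu
miR-2030-5p: uAGCAUAAcauuguaagagauu
miR-2026-5p: uUUCAAAUgucuacugaugga
miR-2024e-3p: uUGCACAUuaccaauauucuga
miR-2022-3p: uUUGCUAGuugcuuuugucccgc
miR-2027-5p: gCUUGUUGguaauuuugcaucu
No seed is shared among these 7 guides. In the study's separate list miR-2027-5p starts 1 base earlier, as uGCUUGUUgguaauuuugca, which moves its seed.

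The guides below rose into, or towards, the leading places in adult males. Those with a letter belong to miRNAs that the study annotated from these IPs, and the letter stands for the sequence printed beside it.
miR-100-5p: gACCCGUAgauccgaacuugug
new guide A: aAGGUGACcucgaucuucaugau
new guide B: uCUUCGGUcuuccucugcuga
miR-9413: uAAAAGUGaucagugguaaggu
miR-9442: aAUAUCAGgaggacgcauucg
miR-9422: uGACAGAAgauagaagcgcuga
new guide C: aAGAGGACgucccucgcgugugg
miR-9424a: uAUAGUUGgcucaucgaggcagu
miR-9435: uCUUGUCAaguguaucuagugug
Each of the 9 has a seed of its own. The separate list starts miR-100-5p 1 base later, aCCCGUAGauccgaacuugug, so the seed of miR-100 depends on which start is used. The counts cannot tell the starts apart, because they are summed per arm.

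In both stages a handful of guides held most of the NveAGO1 cargo. Of the 8 leading guides of each stage 5 were the same, miR-2023-3p, miR-2025-3p, miR-2026-5p, miR-100-5p and miR-2024e-3p, though with different shares. The leading guide was miR-2023-3p in both polyp libraries, with 58.2% and 65.8% of the guide counts. In adults it was miR-100-5p in the first library, with 58.5%, and miR-2023-3p in the second, with 42.8%. The leading 3 guides together held 88.9% and 89.3% in polyps and 90.6% and 86.3% in adults. The effective number of guides (the exponential of the Shannon entropy of the shares) was 3.69 and 3.47 in polyps and 3.49 and 4.69 in adults, and 90% of the counts came from 4 and 4 against 3 and 6 guides. Concentration of the cargo in few guides therefore overlapped between the stages.

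miR-100-5p, the guide shared with bilaterians, went from a minor to a leading guide. It stood at 9932 and 22969 CPM in polyps and at 582787 and 397657 CPM in adults. As a share of all arms this is 1.65% ± 0.922 (SD, n = 2) in polyps and 49.0% ± 13.1 (SD, n = 2) in adults. The groups lay far apart, and the rank among all arms moved from 5 to 1. The fitted log2 fold change came to 4.90 (SE 0.74, edgeR adjusted p = 1.6e-07), a 29.8-fold rise. Over the alternative settings it ran from 2.77 to 5.63, with an adjusted p of at most 0.010. Early planulae, the stage before the polyp in this series, had 93082 and 73954 CPM with NveAGO1, between the levels of the later stages. Of the genome-mapped reads of those planula libraries, 2.84% and 2.64% were miRNA. In early planula IgG, miR-2024e-3p led the first library, at 21.2% of all arms, and miR-100-5p the second, at 46.5%. The part of background in the planula level was not tested.

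miR-2023-3p, the leading polyp guide, stood at 578648 and 653674 CPM in polyps and 299650 and 425379 CPM in adults. Both adult libraries were below both polyp libraries, but the change did not pass the test, with a log2 change of -0.77 (SE 0.63, edgeR adjusted p = 0.31). miR-2026-5p stood at 25819 and 23166 CPM against 18682 and 11317 CPM and did not pass either, at -0.71 (SE 0.62, edgeR adjusted p = 0.35). For miR-2024e-3p the stages overlapped, at 20588 and 11594 CPM against 7720 and 11887 CPM, with -0.71 (SE 0.62, edgeR adjusted p = 0.34). These 3 of the 8 leading polyp guides were thus also among the 8 leading adult guides and are not shown to differ on this scale. Per genome-mapped read all 3 passed as lower in adults (edgeR adjusted p = 0.0034, 0.013 and 0.0048), with a log2 fold change of -2.81 for miR-2026-5p.

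**Figure D1:**
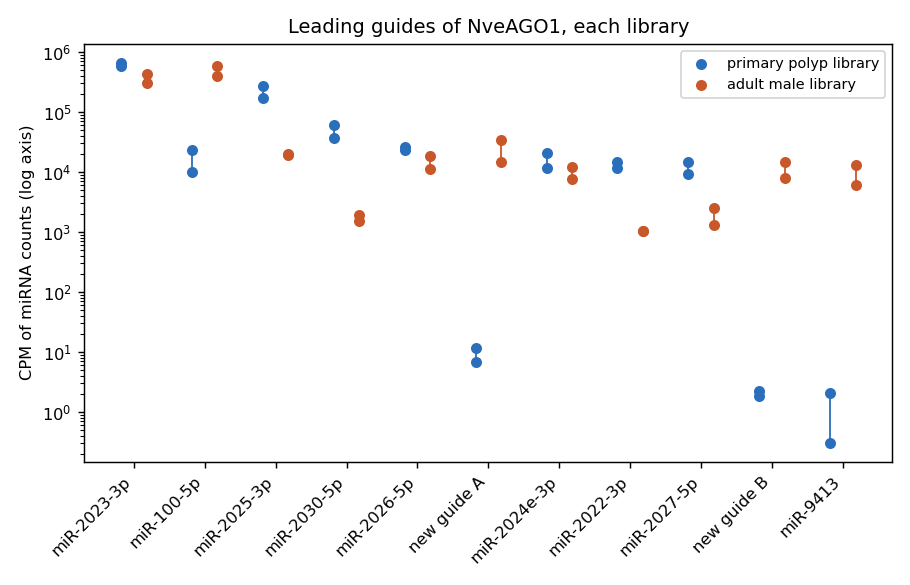
The 11 guides that were among the 8 highest of either stage. Each point is 1 NveAGO1 library, and the log axis gives counts per 1000000 miRNA counts. The adult points stand higher for miR-100-5p, new guides A and B and miR-9413, the polyp points for miR-2025-3p, miR-2030-5p, miR-2022-3p and miR-2027-5p, and both lie close together for miR-2023-3p, miR-2026-5p and miR-2024e-3p.

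The other leading polyp guides fell. miR-2025-3p, the next in polyps, stood at 268446 and 173623 CPM there and at 19654 and 19344 CPM in adults. The adult libraries were nearly equal and far below either polyp library. Its log2 fold change came to -3.50 (SE 0.65, edgeR adjusted p = 9.7e-06), 11.3-fold lower, and the rank moved from 2 to 4. Its star, miR-2025-5p, went from 20.6 and 23.1 to 0.424 and 3.30 CPM, a log2 change of -3.86 (SE 1.07, edgeR adjusted p = 0.0020). Without the first adult library the star missed the threshold (adjusted p = 0.075).

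miR-2030-5p had 37002 and 59778 CPM in polyps and 1504 and 1914 CPM in adults. It fell 28.3-fold, with a log2 change of -4.82 (SE 0.75, edgeR adjusted p = 2.9e-07), from rank 3 to 16. miR-2022-3p, the guide known from stinging cells, had 11568 and 14758 against 1017 and 1035 CPM. The replicates of each stage were close, and it fell 12.8-fold (log2 fold change -3.68, SE 0.72, edgeR adjusted p = 2.1e-05). Early planulae had 210630 and 157894 CPM of it with NveAGO1, above both later stages, and the part of background in this was not tested. miR-2022-5p, its star, had 25 and 102 counts in polyps and 0 and 1 in adults. From the summed counts it was 44.0 times higher in polyps, with an exact 95% counting interval of 7.75 to 1750, and the call was lost without the first adult library (adjusted p = 0.059). miR-2027-5p went from 14628 and 9160 to 2538 and 1295 CPM, 6.20-fold lower (log2 fold change -2.63, SE 0.66, edgeR adjusted p = 0.00066). The stars of miR-2025, miR-2022 and miR-2030 fell with their guides, the last by less than its guide (-1.55, SE 0.68, edgeR adjusted p = 0.049). The star of miR-2027 stood at 0.616 and 0.646 CPM in polyps and 2.12 and 2.20 CPM in adults and was not called (edgeR adjusted p = 0.24).

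Over all arms, 105 of 196 (53.6%) differed between the stages at an adjusted p under 0.05. Of these, 74 (37.8% of those tested) rose in adults and 31 (15.8%) fell. In 88 arms (44.9%) both adult libraries were above both polyp libraries, and in 56 (28.6%) below. The arms that rose held 1.03% and 2.33% of the miRNA counts in polyps and 62.6% and 50.4% in adults, miR-100-5p providing most of it. Those that fell held 34.2% and 26.8% in polyps and 2.55% and 2.46% in adults. These shares describe arms chosen by the test itself, and they moved alike in the other IPs. In IgG the arms that rose went from 1.09% and 1.92% to 48.7% and 32.9%, and with NveAGO2 from 0.595% and 0.798% to 32.4% and 19.8%. The arms that fell went from 20.4% and 20.3% to 5.08% and 3.68% in IgG, and from 29.3% and 22.3% to 7.24% and 6.10% with NveAGO2. The shift was thus not particular to NveAGO1, and the part of background in it was not tested.

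How many arms rose against fell depended on the scale. The median log2 fold change of the 196 arms was 0.47 per miRNA count. With TMM factors the median was -1.36 and the calls were 50 higher and 76 lower. Per genome-mapped read, of which fewer were miRNAs in adults, the median was -1.44 and the calls were 47 and 68. DESeq2's size factors within edgeR gave 65 and 38, and the sum without miR-2023-3p gave 60 and 43, each with a median of 0. Over all settings 39 arms were called higher each time and 14 lower each time, and 0 arms were called in opposite directions. Changes of a size near these medians should be read with the scale in mind.

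**Figure D2:**
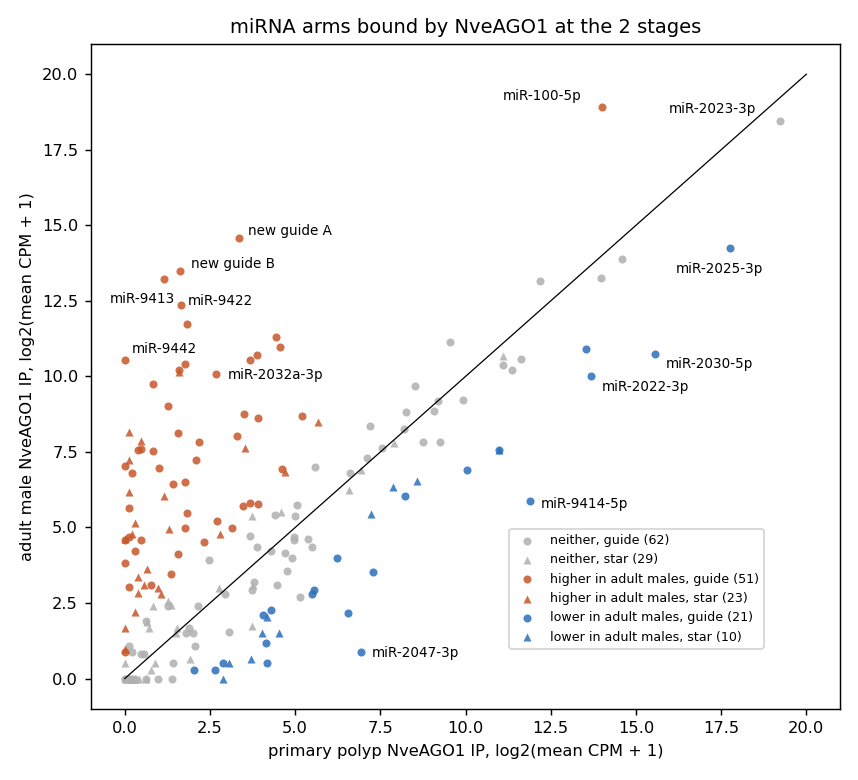
Mean level of each of the 196 tested arms in primary polyps (x axis) and adult males (y axis) with NveAGO1, both as log2(mean CPM + 1). Circles are guides and triangles stars, coloured by call. The 74 arms that rose and 31 that fell lie on either side of the diagonal, and the arms furthest above it are near 0 on the polyp axis.

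The largest rises were of guides that were almost missing from the polyp cargo. Of the 10 arms with the largest rise, 8 were guides and 2 stars. New guide A stood at 6.77 and 11.5 CPM in polyps and 14526 and 34048 CPM in adults. It moved from rank 88 to 3, with a log2 change of 11.35 (SE 1.13, edgeR adjusted p = 9.9e-12), 2618-fold. New guide B had 1.85 and 2.26 against 8027 and 14830 CPM. It rose by 12.37 on the log2 scale (SE 1.07, edgeR adjusted p = 1.9e-13), from rank 118 to 6. miR-9413 had 1 and 13 counts in polyps and 14453 and 11613 in adults, or 0.308 and 2.10 against 6126 and 12777 CPM. Its log2 change of 12.72 (SE 1.21, edgeR adjusted p = 3.4e-12) rests on those 14 polyp counts, and it ranked 8 in adults.

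miR-9442 had 0 counts in both polyp NveAGO1 libraries and 994 and 2314 in adults, or 421 and 2546 CPM. Against a floor of 3 counts summed over the polyp libraries it was at least 3185-fold higher. It was not missing from polyps altogether, since the polyp NveAGO2 libraries held 0.62 and 1.41 CPM. New guide C likewise had 0 and 0 counts in polyps and 224 and 151 in adults, at least 361-fold higher. It was far scarcer in the adult NveAGO2 libraries, at 4.21 and 4.11 CPM against 94.9 and 166 CPM with NveAGO1.

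miR-9422 stood at 2.77 and 1.45 CPM in polyps and 2221 and 8403 CPM in adults, a log2 change of 11.28 (SE 1.09, edgeR adjusted p = 3.4e-12). miR-9424a had 1.54 and 3.55 against 1677 and 5127 CPM (10.29, SE 1.11, edgeR adjusted p = 8.5e-11). miR-9435 had 0.924 and 0.646 against 489 and 1234 CPM (9.99, SE 1.21, edgeR adjusted p = 2.2e-09). For all of these the second adult library was the higher one, by more than the gap between the polyp libraries in CPM, but the stages did not overlap. The 2 stars were those of new guide A and of miR-100. The star of new guide A had 0 and 1 counts in polyps and 425 and 353 in adults, a ratio of summed levels of 2247 with an exact 95% counting interval of 402 to 88873. miR-100-3p had 0 and 1 against 330 and 147 counts, a ratio of 1378 (246 to 54532). Both arms of these precursors therefore rose together.

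**Figure D3:**
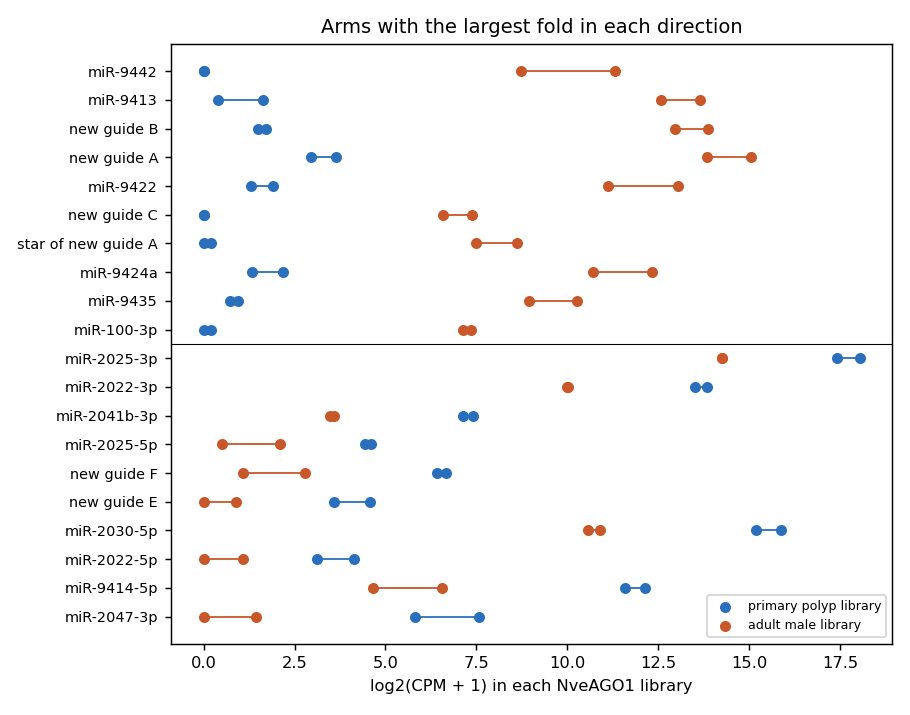
The 10 arms with the largest rise and the 10 with the largest fall in adults. Each point is 1 NveAGO1 library and the axis is log2(CPM + 1). The stages are apart in all 20 because only arms with no overlap were taken. The rises start from low levels in polyps, while the falls include guides at high levels such as miR-2025-3p.

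The guides with the largest falls outside the leading ones are shown with their sequences.
miR-9414-5p: aACUUGAUcuucaaugaacu
miR-2047-3p: uCAGACAUcugcucggcgaauu
miR-2041b-3p: uUAGAGGAaaauaccccugg
new guide E: aGAGGUUCgacuguauauccuuu
new guide F: uUUGUGUAuguuuauguuuag
miR-9414-5p had 4488 and 3067 CPM in polyps and 92.4 and 24.2 CPM in adults. It fell 63.7-fold (log2 fold change -5.99, SE 0.87, edgeR adjusted p = 9.4e-08), from rank 10 to 77. In polyps it was carried mainly by NveAGO2, at 218421 and 131923 CPM of those libraries, and it fell there too, to 3180 and 498 CPM. miR-2047-3p had 612 and 339 counts in polyps and 4 and 0 in adults, a log2 change of -6.66 (SE 1.19, edgeR adjusted p = 4.9e-06). The study's separate list names its other arm as the guide, so its role is uncertain. miR-2041b-3p went from 169 and 140 to 10.2 and 11.0 CPM (-3.86, SE 0.80, edgeR adjusted p = 5.7e-05). New guide F went from 99.8 and 85.1 to 5.93 and 1.10 CPM (-4.51, SE 1.01, edgeR adjusted p = 0.00016). New guide E had 11.1 and 22.8 CPM in polyps and 2 counts in all in adults, 30.6 times higher in polyps with a counting interval of 8.36 to 255. Of these 5 guides, miR-9414-5p was the most abundant in polyps and none was among the 8 leading polyp guides.

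Named guides were next counted by the start of their number. The miR-94 numbered guides (miR-9413 to miR-9457) were 20 in the test, of which 13 rose (65.0%) and 2 fell, with a median log2 fold change of 3.96. Over all 134 guides 38.1% rose and 15.7% fell, with a median of 0.47. The 13 ranged from the abundant miR-9413 to miR-9424b, at 0.308 and 0.161 against 10.2 and 25.3 CPM. miR-9455, with 2 counts in polyps, stood at 79.7 and 143 CPM in adults, and miR-9429-3p went from 1.23 and 1.61 to 262 and 778 CPM. The 2 that fell were miR-9414-5p and miR-9448, the latter from 24.9 and 12.3 to 4.24 and 3.30 CPM (-2.24, edgeR adjusted p = 0.031). Together these guides held 0.577% and 0.361% of the cargo in polyps and 1.43% and 3.41% in adults. With NveAGO2, 13 of the same 20 rose and 1 fell (median 2.82), beside 64 and 20 of all 134 guides.

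Of the 29 miR-20 numbered guides (miR-2022 to miR-2050), 11 fell (37.9%) and 3 rose (10.3%), with a median of -1.02, beside the 15.7% and 38.1% over all guides. Besides the leading ones, miR-2050-3p fell from 1205 and 904 to 123 and 116 CPM (-3.14, SE 0.80, edgeR adjusted p = 0.00079). The 3 that rose were miR-2031-5p, miR-2042-3p and miR-2032a-3p. miR-2032a-3p was the one with the large change, from 4.93 and 5.98 to 503 and 1657 CPM (7.60, SE 0.99, edgeR adjusted p = 7.6e-09), and its counts are the same as those listed for miR-2032b-3p. The miR-20 numbered guides held 97.5% and 96.4% of the counts in polyps and 36.7% and 48.9% in adults. With NveAGO2, 10 of the 29 rose and 6 fell (median 0.12), beside 64 and 20 of all 134 guides. miR-2024g-5p, a guide, and miR-2024a-5p, a star, have near-identical counts (for the star 1455 and 2610 against 106 and 272 CPM), so the fall of each (-3.43, SE 0.81, edgeR adjusted p = 0.00035) is uncertain, as the reads could belong to either.

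Of the newly annotated guides, 84 were tested, 34 rose (40.5%) and 8 fell (9.52%), with a median of 1.04. The study annotated them from these same IPs and asked for a minimum of guide reads in a replicate. Their rises and falls are therefore not independent of how they were chosen. Previously annotated guides numbered 50, of which 17 rose and 13 fell, with a median of 0.10. New guides held 0.406% and 0.342% of the counts in polyps and 3.24% and 7.23% in adults, so they stayed a small part of the cargo. With NveAGO2, 40 of the 84 rose and 13 fell, beside 64 and 20 of all 134 guides. All 134 guides had 51 rises (38.1%) and 21 falls (15.7%), and the 62 stars had 23 and 10.

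The study sorted guides by the Argonaute that they preferred by over 70% in these same libraries, so those lists are not independent of the values here. Over all guides tested 38.1% rose and 15.7% fell. Of the 37 guides listed for NveAGO1, 19 rose (51.4%) and 5 fell (13.5%), with a median log2 fold change of 3.53. Of the 57 listed for NveAGO2, 17 rose (29.8%) and 12 fell (21.1%), and the median was -0.23. In the NveAGO2 libraries, 28 of those 37 rose and 1 fell (median 3.31), and 18 of those 57 rose and 12 fell (median 0.59). Over all 134 guides there, 64 rose and 20 fell, with a median of 1.46. The rises of the guides listed for NveAGO1 were thus not particular to the NveAGO1 libraries. Among the 22 guides both new and listed for NveAGO1, 13 rose (59.1%) and 1 fell (4.55%), with a median of 5.17. With NveAGO2, 18 of these 22 rose and 0 fell, with a median of 3.39. These were chosen through the same IPs by annotation and by list, so their rises are shaped by that choice. Guides listed for NveAGO1 held 94.8% and 96.6% of the guide counts in polyps and 98.0% and 96.7% in adults. As the list was drawn from these same libraries, a high share at both stages follows in part from how it was made. No conclusion about the cargo is drawn from it.

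Length and first base were looked at because Argonautes of other animals and of plants can prefer one 5′ base. Weighted by counts, guides that start with U made up 37.9% and 29.8% of the guide cargo in polyps and 8.80% and 11.9% in adults. The stages did not overlap, and the difference of -23.5 percentage points had an exact permutation p of 0.333, the smallest that 2 against 2 libraries can give. miR-2025-3p alone, with a 5′ U, was 26.8% and 17.4% of all arms in polyps and 1.97% and 1.93% in adults, whereas miR-100-5p has no 5′ U. Counted as guides, 28 of the 82 with a 5′ U rose (34.1%) and 14 fell (17.1%). Of the 52 with another base 23 rose (44.2%) and 7 fell (13.5%). Both are near the 38.1% and 15.7% over all guides. Mean length of the guides as given in the count table, weighted by counts, was 21.4 and 21.3 nt in polyps and 21.7 and 21.6 nt in adults. It depends on miR-100-5p, 22 nt there, which starts 1 base later in the separate list. With that start the adult means would be lower, and they were not computed, so no change in length is shown. Guides of 22 nt or more (81 tested, 37.0% higher and 17.3% lower) and shorter ones (53 tested, 39.6% and 13.2%) gave medians of 0.56 and 0.36. These shares too are near those over all guides. All 3 seeds that were shared among guides joined only a pair each, and the miR-2024e-3p and miR-2024f-3p pair (UGCACAU) was not called on either side.

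The same stages were compared in the NveAGO2 libraries, to set the change with NveAGO1 beside it. There, 115 of 196 arms (58.7%) differed, 86 (43.9%) higher and 29 (14.8%) lower in adults. The difference between the changes was tested as an interaction, and 27 arms (13.8%) passed. The signed log2 fold change was larger in NveAGO1 for 15 (7.65%) and smaller for 12 (6.12%), where smaller includes a deeper fall. With the replicate number within a stage as a block the counts were 38 and 41. Some of the guides that passed the interaction are shown here.
miR-2040a-3p: uUUGUCUCguaacugcccugaag
new guide D: uUCAUUAUcucuaucaucgcuu
miR-9446: uUUUUUCUuaugucgucaugu
For 169 arms no difference in change was called, which does not show that they changed alike.

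miR-100-5p rose in NveAGO2 too, from 477 and 448 to 262063 and 128487 CPM, by more than in NveAGO1 (interaction -3.82, SE 0.92, edgeR adjusted p = 0.0039). It was also high in the adult IgG libraries, at 408210 and 266451 CPM, against 4040 and 12719 CPM in polyp IgG. Levels per miRNA count in the control IPs therefore moved with the stage as well, and whether that bears on the NveAGO1 change was not tested. New guide A was at 0 and 0 CPM in polyp NveAGO2 and 568 and 695 CPM in adult NveAGO2, and at 12367 and 6985 CPM in adult IgG. miR-9413 and new guide B likewise had 3201 and 3746 CPM and 5438 and 3847 CPM in adult IgG, on far fewer counts.

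miR-2025-3p fell in NveAGO1, while in NveAGO2 it stood at 36048 and 51308 CPM in polyps and 53199 and 41890 CPM in adults, with no call (0.12, SE 0.59, edgeR adjusted p = 0.86). The interaction was -3.63 (SE 0.87, edgeR adjusted p = 0.0039). miR-2030-5p had 3661 and 4120 against 646 and 2219 CPM in NveAGO2, and the interaction was -3.38 (SE 0.93, edgeR adjusted p = 0.014). miR-2040a-3p, a guide the study lists for both proteins, stood at 2333 and 2056 CPM in polyp NveAGO1 and 835 and 1836 CPM in adult NveAGO1, with no call (-0.72, edgeR adjusted p = 0.38). In NveAGO2 it rose from 314 and 515 to 8047 and 15872 CPM. Its interaction of -5.57 (SE 1.01, edgeR adjusted p = 0.00024) passed in each alternative, at an adjusted p of at most 0.015. Per miRNA count, the level of miR-2040a-3p was thus higher with NveAGO1 in polyps and, in adults, higher with NveAGO2.

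In the other direction, miR-9422 rose in NveAGO1 by far more than in NveAGO2, where it had 17.3 and 25.6 against 1043 and 1707 CPM (interaction 5.29, SE 1.08, edgeR adjusted p = 0.00074). New guide D had 3.08 and 0.807 CPM in polyp NveAGO1 and 156 and 407 CPM in adult NveAGO1, a log2 change of 7.20 (SE 1.08, edgeR adjusted p = 1.5e-07). In NveAGO2 it stood at 184 and 183 CPM in polyps and 162 and 514 CPM in adults, so it was present there at both stages. Its interaction was 6.32 (SE 1.27, edgeR adjusted p = 0.00074). miR-9446, which the study also lists for both proteins, rose with NveAGO1 from 14.8 and 5.98 to 239 and 615 CPM (5.37, SE 0.93, edgeR adjusted p = 2.9e-06). With NveAGO2 it went from 73.4 and 68.1 to 181 and 327 CPM, and the interaction was 3.52 (SE 1.13, edgeR adjusted p = 0.035). miR-9446 was not among the 5 arms with the smallest interaction p in this direction. Its interaction under the alternative settings is not given here.

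How many arms passed the interaction depended on single libraries. Without the first or the second polyp NveAGO1 library 5 and 4 arms were larger in NveAGO1 and 7 and 6 smaller, and without the first or the second polyp NveAGO2 library 5 and 3 were larger and 2 and 3 smaller. Leaving out the second adult NveAGO1 library left 5 and 11, and the first adult NveAGO2 library 8 and 10. Per genome-mapped read 4 and 1 arms passed. There the interactions of miR-2025-3p and miR-100-5p missed the threshold (adjusted p = 0.118 and 0.121), and that of miR-2025-3p also missed it without the first polyp NveAGO2 library (0.055).

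**Figure D4:**
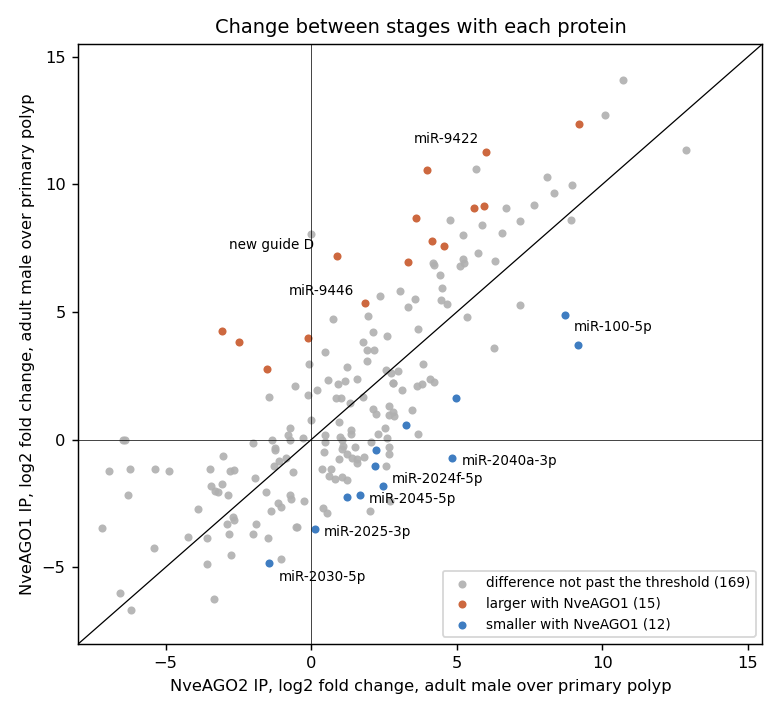
Log2 fold change from primary polyps to adult males with NveAGO2 (x axis) and NveAGO1 (y axis) for the 196 tested arms. Coloured points passed the interaction test, 15 with the larger and 12 with the smaller signed log2 fold change in NveAGO1, and the other 169 did not. A smaller signed value can be a deeper fall. miR-2040a-3p lies far to the right near 0 on the y axis, and new guide D high near 0 on the x axis.

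Star strands are rarely kept, so the ratio of star to guide within a library shows which strand was loaded, and it does not depend on the library scale. Stars made up 0.518% and 0.626% of the counts in polyps and 0.401% and 0.687% in adults, and the stages overlapped. Of 54 miRNAs with enough counts, 9 (16.7%) had a higher star to guide ratio in adults at an adjusted p under 0.05 in edgeR. None had a lower one (0.0%), while 4 were lower at an unadjusted p under 0.05. Both arms of miR-2030 and of new guide G, the new guide with the smallest p, are printed for comparison.
miR-2030-5p: uAGCAUAAcauuguaagagauu
miR-2030-3p, its star: cCUCUUUAcauuguugugcugua
new guide G: aCAGACUUcgcucaaaaucuaa
star of new guide G: aGAUUUUGagcggggucugcua
miR-2030 comes first because it has the most star counts of the 9, a choice made after its values were seen.

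For miR-2030 the star took 0.546% and 0.437% of both arms in polyps and 4.70% and 4.24% in adults, from 660 and 1623 star counts against 175 and 77. The guide fell further than the star, and the log2 ratio rose by 3.25 (SE 0.71, edgeR adjusted p = 0.019). Without the first or the second adult library the adjusted p was 0.093 and 0.054. For miR-2047 the star went from 0.488% and 1.74% to 78.9% and 100% of both arms, with 15 and 7 star counts in adults and 4 and 0 guide counts. Its log2 ratio rose by 9.20 (SE 1.25, edgeR adjusted p = 0.0058). The study's separate list names the arm called star here as the guide of miR-2047, so which strand gained is uncertain. New guide G had a star share of 1.67% and 2.41% in polyps and 50% and 72.7% in adults, on 8 star counts in each adult library (edgeR adjusted p = 0.0086). That call was lost without the first or the second polyp library (adjusted p = 0.082 and 0.053). In miR-2047 and new guide G the adult guide counts were 11 or fewer, so the share is loosely measured.

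For miR-2043a-5p the star share went from 1.72% and 4.76% to 62.5% and 100% (log2 ratio 6.98, SE 1.42, edgeR adjusted p = 0.019), on 10 and 17 adult star counts. The calls of miR-2047 and miR-2043a were kept without any 1 of the 4 libraries. miR-100-5p kept very few stars at either stage, 0% and 0.000703% in polyps and 0.0240% and 0.0407% in adults. Its ratio rose by 5.34 (SE 1.29, edgeR adjusted p = 0.022), a call lost without the first or second adult library (adjusted p = 0.107 and 0.223). miR-2040a-3p, not called for its level, had a star share of 0.198% and 0.352% in polyps and 1.99% and 1.94% in adults (2.89, SE 0.67, edgeR adjusted p = 0.021), lost without either polyp library (0.234 and 0.066). miR-2035-5p, miR-2027-5p and another new guide completed the 9. These 3 calls were lost without a library as well, at an adjusted p of 0.121 for miR-2035-5p without the second polyp library, 0.082 and 0.064 for miR-2027-5p without the first polyp or first adult library, and 0.155 and 0.242 for the new guide without either polyp library. With at least 50 star counts required, 33 miRNAs were tested and 0 passed in edgeR, while 7 had an unadjusted p under 0.05, 4 of them higher.

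On the lower side, the star of miR-2024f-3p took 51.2% and 53.6% of both arms in polyps and 23.9% and 20.2% in adults, and did not pass (-1.96, SE 0.66, edgeR adjusted p = 0.084). miR-2024a-3p, whose star outnumbered the guide in all 4 libraries, did not pass either (-2.41, SE 0.79, edgeR adjusted p = 0.082), but did without the second adult library (0.0055). For miR-2032a-3p the same held without the first adult library (-2.88 with edgeR adjusted p = 0.105, against 0.012). The star counts of miR-2024a are near-identical to those of the guide miR-2024g-5p. The reads could belong to either, so the star excess and ratio of miR-2024a are uncertain. In 115 guide and star pairs, the star outnumbered the guide in 9 and 10 pairs in polyps and in 9 and 10 in adults, and in 4 pairs in all 4 libraries. Those 4 include miR-2024a, and miR-2042, for which the study's separate list names the other arm as the guide. For newly annotated miRNAs the study asked for a dominant guide strand in these same IPs. That the named guide was the more abundant strand in most pairs follows in part from this choice, and no conclusion is drawn from it.

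**Figure D5:**
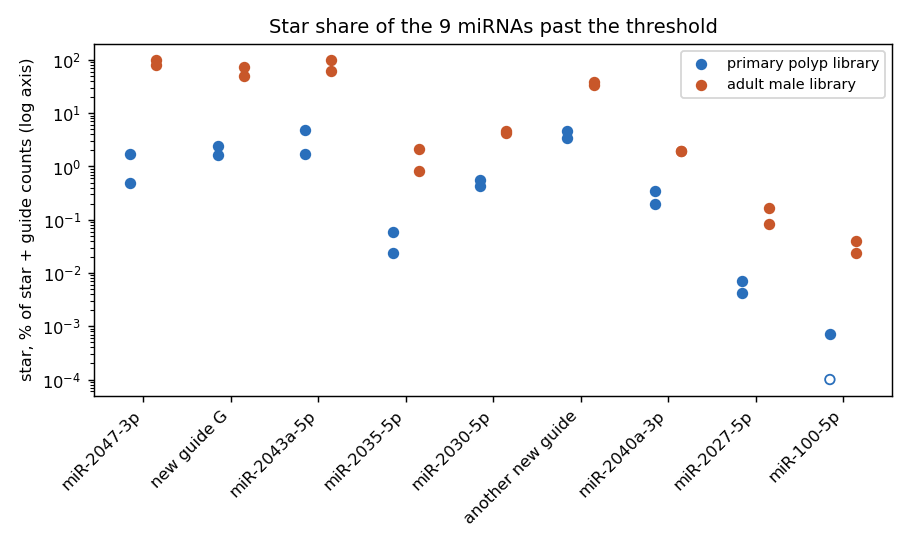
Share of star counts among star and guide counts, in percent on a log axis, for the 9 miRNAs with a changed ratio. Each point is 1 NveAGO1 library, and the open circle marks the polyp library with 0 star counts for miR-100. The adult points lie above the polyp points in all 9.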

How the data were processed

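Small RNAs from NveAGO1, NveAGO2 and IgG IPs of 3 stages were sequenced. The authors trimmed adapters with cutadapt and assigned reads to miRNA precursors with the mirDeep2 quantifier under default settings; the deposited table holds raw counts per arm. Neither the cutadapt version nor the genome build is given in the sources used here. Here, 3 arms that repeated another were tested once, and a test was made of the 196 of 255 arms that reached 10 counts in 2 or more of the 18 libraries. The fit was edgeR 4.0.16 (quasi-likelihood F test, Benjamini-Hochberg) in R 4.3.3 on 9 groups, with 9 residual degrees of freedom and the sum of miRNA counts as library size. DESeq2 1.42.0 was an alternative. Star to guide ratios were fitted in edgeR on the 4 libraries, each library being a block, where a miRNA had 5 or more star and 50 or more guide counts in all. Exact tests, counting intervals and figures used scipy 1.17.1, numpy 2.4.6, pandas 2.3.3 and matplotlib 3.10.9 under Python 3.11.15. Counts of 0 were set to a floor of 3 counts over the group, and with 1 to 3 counts the ratio of summed levels is given with an exact 95% (Clopper-Pearson) interval. Intervals and floors cover counting error only, since reads and not molecules were counted. The p-values of the main fit rest on a spread estimated over all 18 libraries, with 2 biological replicates per group. They do not rest on the 4 NveAGO1 libraries alone. Fitted on those 4, the edgeR adjusted p was 0.00086 for miR-100-5p and 0.00046 for new guide B. The main fit takes the libraries as independent.

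Members, lists and tests were chosen with earlier results of these data known. Named were the 8 leading guides per stage, the 10 largest non-overlapping changes per direction with at least 50 counts, the miRNAs the paper names with seed relatives, up to 4 star ratios and up to 5 interactions per direction. Arms outside this rule (further miR-94 and miR-20 numbered guides, the remaining star ratios, new guides K and L) were picked after their values were seen. Guide and star follow the arm names in the deposited table for newly annotated miRNAs and the study's arm annotation for the others, with 3 arms of miR-2041b and miR-2043a assigned by sequence from its separate guide list or as the partner; that list gives the other arm for 7 guides and a shifted start for 3, against 128 with the same start. Names of newly annotated guides are not printed, and letters stand for them. The scripts were tested on simulated data. Alternatives covered library size, tool, filters, libraries, the replicate block and repeated arms. The knockdown table was not used here, and 0 columns of the table were left unmapped.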

Additional observations from a re-analysis of the deposited data

Results flagged for a closer look

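The changes below differed between NveAGO1 and NveAGO2 by the interaction test, as the log2 fold change from polyp to adult with NveAGO1 minus that with NveAGO2. They are the 5 arms with the smallest p in each direction. On this signed scale, larger in NveAGO1 were miR-9422 (5.29), new guide D (6.32) and the stars of new guide A (6.58), new guide I (5.07) and new guide J (7.34). Smaller in NveAGO1, which includes a fall there without one in NveAGO2, were miR-2040a-3p (-5.57), miR-100-5p (-3.82), miR-2025-3p (-3.63), miR-2024f-5p (-4.29) and miR-2045-5p (-3.86). The edgeR adjusted p ran from 0.00024 for miR-2040a-3p to 0.018 for the star of new guide J.

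The last of these rests on 0 and 4 counts in the adult NveAGO1 libraries, and without the second of them its adjusted p was 1.0. The star of new guide I, with 0 and 5 counts in polyps and 213 and 343 in adults with NveAGO1, missed the threshold without the first polyp or the second adult NveAGO1 library (0.065 and 0.076). The star of new guide A missed it without the second polyp NveAGO2 library (0.097). miR-2024f-5p, a star, had 159 and 140 CPM in polyps and 27.6 and 57.2 CPM in adults with NveAGO1, against 36.2 and 34.4 and then 204 and 185 CPM with NveAGO2. miR-2045-5p, a guide, went from 339 and 259 to 77.1 and 53.9 CPM with NveAGO1 and from 355 and 566 to 1847 and 1098 CPM with NveAGO2. These 2 arms thus moved in opposite directions in the 2 proteins, in every library, but both missed the interaction threshold without either polyp NveAGO2 library (0.055 and 0.055 for the star, 0.091 and 0.055 for the guide).
new guide I: aUUCUGUAcagucuccuguuguc
new guide J: cUCUUUCGggauuauucugag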

How the results depend on the processing

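Per genome-mapped read the counts of arms were 47 higher and 68 lower, and with TMM factors 76 lower, against 74 and 31; leaving out each library gave 60 to 70 and 21 to 26. Of the interactions, 15 and 12 as fitted, TMM factors gave 7 and 37, genome-mapped reads 4 and 1, and the 12 AGO libraries alone 30 smaller in NveAGO1; leaving out each library gave 3 to 20 and 2 to 17. The star to guide ratio gave 9 higher and 0 lower, 0 higher with at least 50 star counts, and 6 to 9 and 0 to 1 without a library. miR-2024f-3p turned from 0.20 to -2.06 with TMM factors. The causes were not tested. The labels do not say that replicate numbers pair libraries. Deviations of same-numbered libraries correlated at r = -0.01 between the stages, but at 0.42 in polyps and 0.64 in adults between NveAGO1 and NveAGO2, a hint from the data that numbers tie those IPs within a stage. The replicate block gave 71 and 28 arms and 38 and 41 interactions. For the change between stages with NveAGO1, miR-2023-3p passed with the block (-0.78, edgeR adjusted p = 0.048). There the stage changes of miR-2024f-5p and miR-2045-5p lost their calls (edgeR adjusted p = 0.101 and 0.064). Of 840 comparisons of named values with an alternative, 750 kept direction and call, 62 lost it and 27 gained it. The filter on the 4 NveAGO1 libraries, chosen after seeing the data, gave 63 and 33 arms. Makeup was computed over guides and over all arms, and that choice moved no stage difference by more than the spread between replicates. Library size, tool and replicate block do not act on shares within a library, so they could not move the makeup.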

Other observations

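New guide K and new guide L were present in 1 adult library and missing from its replicate, the 2 arms with at least 100 counts in one library of a stage and 0 in the other; they were chosen after their values were seen.
new guide K: uAAUGUGGaaggaaaaaacgug
new guide L: aCAAAAUUgcgggcgggacuug
New guide K had 1443 counts (612 CPM) in the first adult NveAGO1 library and 0 in the second. The adult NveAGO2 libraries showed the same split, 280 counts against 0, at 589 CPM in the first. In polyps it stood at 232 and 351 CPM with NveAGO1, and early planulae had 175 and 205 counts. New guide L had 121 counts in the first adult NveAGO1 library and 0 in the second, 4 and 0 in adult NveAGO2, and 0 in both polyp NveAGO1 libraries. So the libraries numbered 1 and 2 differed alike in both IPs of adult males for these 2 guides. No explanation was tested.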
